A study of Mus musculus with 24 samples.

Results

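S100 genes encode small calcium-binding proteins, and 10 of them (S100a1, S100a4, S100a6, S100a8, S100a9, S100a10, S100a11, S100a13, S100a16 and S100b) were followed here among the 21965 genes of the count table. They were taken by symbol, and S100a1 was chosen by measured values, namely its OL translatome level on day 42 after injury, which stood far above naive tissue. That contrast is therefore described for the 10 genes without a test. S100a1 also has no test wherever naive or day 42 OL libraries enter. All 10 genes passed the filter on low counts (a sum of at least 10 reads), as did 17167 genes in all.

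The libraries came from female OL-Ribotag mice, labelled 10 to 12 weeks old, in which a tamoxifen-induced Cre tags ribosomes of mature oligodendrocytes (OLs) with HA through an Rpl22 allele. Naive mice were compared with mice killed 2, 10 or 42 days (dpi) after a 50 kdyn contusion of the spinal cord at T9 (SCI), and every group carried the same transgenes. Each of the 8 groups had 3 libraries, each from 2 mice pooled: an OL translatome library (RNA pulled down with the tagged ribosomes) and a total RNA library came from the same pool. The tissue spanned the lesion, and this Cre is also active in Schwann cells. By the study's account naive and dpi 42 tissue was taken on the same day, at an age above the labelled range. Age and time since tamoxifen therefore differ for dpi 2 and dpi 10. In comparisons of these days with naive tissue they cannot be told apart from the injury.

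An S100 protein typically works as a dimer that changes shape when it binds calcium and then grips a partner such as an annexin, a myosin or the receptor RAGE. S100b is the member best known from glia, where it marks astrocytes and part of the oligodendrocyte lineage. S100a8 and S100a9 form calprotectin in neutrophils and monocytes, while S100a4, S100a6, S100a10 and S100a11 are widespread genes often high in reactive or motile cells.

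Of the 10 genes, 9 lie on chromosome 3 and S100b lies on chromosome 10 (build GRCm38, GENCODE M21 annotation). A block of 7 genes fills 185 kb around S100a1 (chr3:90511034-90514392, minus strand), and S100a11 (chr3:93520488-93526287) and S100a10 (chr3:93555080-93564643) follow 2825 kb further on. S100a1 and S100a13 (chr3:90514435-90524581, plus strand) are head to head, with 42 bases between the annotated genes. S100b (chr10:76253853-76261159, plus strand) overlaps Dip2a on the opposite strand and S100a4 (chr3:90603771-90606045) overlaps Gm42674 on its own strand. Whether the counting used strand is not given in the sources used here, so reads of these overlaps cannot be told apart.

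RefSeq promoter windows (GRCm38.p6, 250 bases before to 50 after the gene start) were found for 9 of the 10 genes, the exception being S100a10. The S100a1 window is shown because it also holds the start of S100a13, and its capitals mark the 104 bases between the RefSeq starts of both genes (chr3:90514281-90514580, minus strand).
S100a1: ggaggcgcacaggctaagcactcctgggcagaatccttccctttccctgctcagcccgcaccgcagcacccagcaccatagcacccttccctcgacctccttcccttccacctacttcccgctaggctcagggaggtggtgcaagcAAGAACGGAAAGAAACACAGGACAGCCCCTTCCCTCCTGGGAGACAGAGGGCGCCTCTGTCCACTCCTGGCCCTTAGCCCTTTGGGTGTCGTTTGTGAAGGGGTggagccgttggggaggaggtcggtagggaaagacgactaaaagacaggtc
The windows of S100a4 (chr3:90603520-90603819, plus strand), S100a8 (chr3:90668821-90669120, plus strand) and S100a9 (chr3:90695672-90695971, minus strand) are shown because they hold TATAAA, in capitals, on the strand of the gene. These 3 genes were near 0 in naive tissue, as was S100a11, whose window holds no TATAAA.
S100a4: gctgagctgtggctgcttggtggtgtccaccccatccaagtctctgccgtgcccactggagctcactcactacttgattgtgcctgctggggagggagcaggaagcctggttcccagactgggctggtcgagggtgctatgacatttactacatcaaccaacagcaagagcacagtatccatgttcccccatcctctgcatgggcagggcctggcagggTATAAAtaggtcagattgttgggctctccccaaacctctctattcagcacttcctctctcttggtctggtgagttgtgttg
S100a8: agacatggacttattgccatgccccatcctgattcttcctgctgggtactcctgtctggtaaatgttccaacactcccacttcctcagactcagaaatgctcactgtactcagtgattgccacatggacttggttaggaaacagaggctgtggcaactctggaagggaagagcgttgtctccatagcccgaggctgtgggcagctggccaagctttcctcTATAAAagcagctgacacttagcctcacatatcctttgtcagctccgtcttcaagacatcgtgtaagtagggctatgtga
S100a9: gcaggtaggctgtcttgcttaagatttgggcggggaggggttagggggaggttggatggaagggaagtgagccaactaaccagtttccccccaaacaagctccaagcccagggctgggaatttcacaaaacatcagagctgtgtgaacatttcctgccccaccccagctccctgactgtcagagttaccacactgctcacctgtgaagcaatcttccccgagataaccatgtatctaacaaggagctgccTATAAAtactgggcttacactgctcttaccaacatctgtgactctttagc
The S100a11 window (chr3:93520246-93520545, plus strand) is shown for its matches to the AP-1 letters TGANTCA, in capitals.
S100a11: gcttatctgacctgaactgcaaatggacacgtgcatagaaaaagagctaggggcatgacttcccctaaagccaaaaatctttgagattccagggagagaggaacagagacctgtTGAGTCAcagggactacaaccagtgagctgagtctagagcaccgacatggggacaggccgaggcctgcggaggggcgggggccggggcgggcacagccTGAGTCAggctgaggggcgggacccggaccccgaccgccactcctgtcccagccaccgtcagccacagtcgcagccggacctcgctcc
TATAAA began 31 bases before the start of S100a4, 30 bases before that of S100a8 and at the start base itself in S100a9. Of 32851 mouse windows of this length, 8.32% held TATAAA on the strand of the gene. TGANTCA, a pattern that is its own reverse complement, occurred 2 times in the S100a11 window, 136 and 38 bases before the start, and in 7.81% of all windows. Among the members it was otherwise present only in the second of the 2 windows listed for S100a16. The letters of 3 other motifs were searched on both strands: TTGCNNAA (C/EBP, 10.8% of all windows) was found in S100a9 alone, TTCNNNGAA (STAT, 8.3%) in no member, and GGGCGG (GC box, 35.7%) in S100a9, S100a11 and the second S100a16 window. Any of these matches is a description of letters only.

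Libraries held 25840127 to 32987841 reads, so 3 reads correspond to 0.084 to 0.127 CPM (reads scaled to a common library size with TMM factors), the unit of all levels below. Expression of 8 mature OL markers summed to 96310 to 157900 CPM in OL libraries and 19320 to 27880 CPM in total RNA. Labels of 2 dpi 42 libraries contradict each other (OL replicate 1 and total replicate 2 here) and were resolved by the description that the count table's headers follow. Both libraries of pool 2 on dpi 2 carried 2414 to 2604 Y-linked reads, against at most 13 in the other 22 libraries, although all mice were labelled female. Calls that are lost without these libraries are given with both values. The OL libraries also differed in the sum of 7 astrocyte markers. It was 2231, 2455 and 12230 CPM in the naive OL libraries and 2850, 12800 and 14710 CPM on dpi 42, against 6857 to 9392 CPM in all total RNA libraries. Abundant markers weigh most in such a sum, and the 7 did not act alike. In OL against total RNA on dpi 2, Aldoc was called higher, Aqp4 and Slc1a3 were called lower and the rest were not called.

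**Figure D1:**
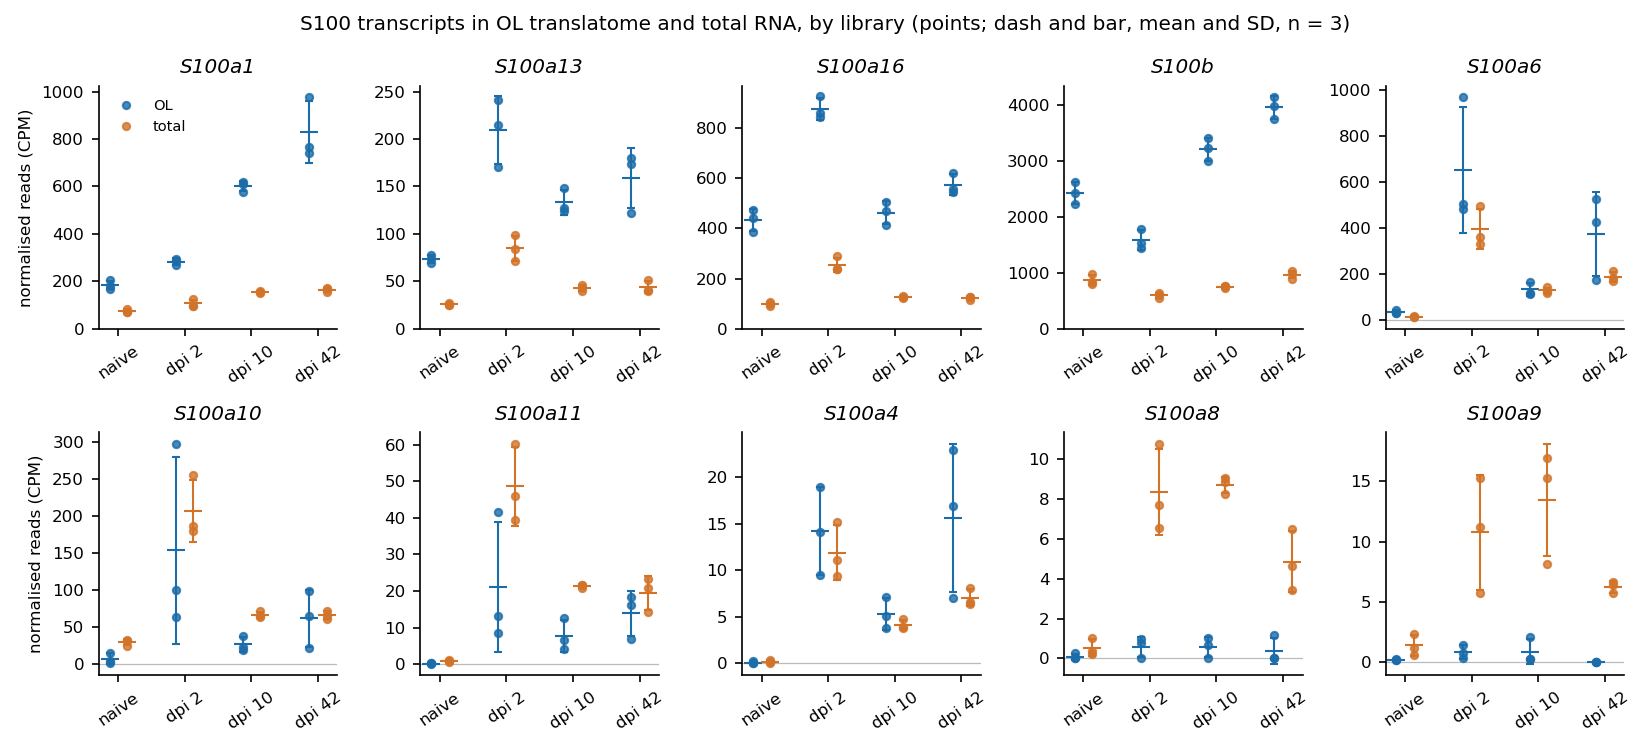
Normalized reads (CPM, linear axis) of the 10 S100 genes in each library; blue points are OL translatome, orange points total RNA, and the dash with its bar is the mean with SD of 3 libraries. S100a1 and S100b were highest in OL libraries of dpi 42, S100a13 and S100a16 in OL libraries of dpi 2, and S100a8 and S100a9 stayed at or below 2.06 CPM in OL libraries.

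S100a1, known as a modulator of calcium release channels in muscle, rose in total RNA after SCI and stayed up. In total RNA it measured 82.5, 70.9 and 69.7 CPM in naive tissue. The dpi 2 libraries held 97.3, 125 and 97.2 CPM, those of dpi 10 held 154, 149.6 and 158, and those of dpi 42 held 172, 156 and 167. No injured library overlapped the naive ones. Here and below, the share of all genes separated in this way was computed only for OL libraries of dpi 42 against naive and against dpi 10. The log2 fold change against naive was 0.52 ± 0.11 (SE) on dpi 2, 1.05 ± 0.11 on dpi 10 and 1.15 ± 0.11 on dpi 42 (n = 3 per group; q = 0.001, 5.94e-07 and 3.44e-07, q being edgeR's quasi-likelihood p-value adjusted by Benjamini-Hochberg over all tested genes). From dpi 2 to dpi 10 it rose further, by 0.53 ± 0.11 (q = 0.0043), whereas dpi 42 and dpi 10 differed by 0.10 (q = 0.87).

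In the OL translatome the level of S100a1 was 168, 179.9 and 205 CPM in naive tissue. It was 284, 296 and 269 CPM on dpi 2, then 577, 619 and 609 CPM on dpi 10, and 978, 767 and 739.9 CPM by dpi 42. The 4 OL groups were thus fully separated from each other in the order of the days. The sum of 6 Schwann cell markers in OL libraries had means in the same order, at 270, 434, 1155 and 1311 CPM, with ranges that overlapped between naive tissue and dpi 2 and between dpi 10 and dpi 42, and its part in the S100a1 and S100b values was not tested. Of these steps only the one from dpi 2 to dpi 10 was independent of how the gene was picked, and it was a rise of 1.09 ± 0.11 on the log2 scale (q = 7.09e-07). S100a1 was also OL enriched on both of these days, with OL over total RNA at log2 1.42 ± 0.12 on dpi 2 (q = 5.22e-07) and 1.97 ± 0.12 on dpi 10 (q = 2.73e-08). The values that carry no test were 1.31 in naive tissue and 2.32 on dpi 42. Among all 8 groups, naive OL and dpi 42 total RNA were neighbours whose libraries overlapped, as did those of dpi 42 and dpi 10 total RNA.

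S100a1 transcripts are short (694 bases of exon), and a correction of each library for gene length and GC content changed these values. The correction was fitted to each library's own deviations from the gene means, so real differences that follow length or GC content are also removed by it. Under it the total RNA change on dpi 2 was -0.17 (q = 0.23) in place of 0.52, and those on dpi 10 and dpi 42 were 0.53 and 0.57 (q = 0.00077 for each). The untested OL change was -0.63 in place of 0.62 on dpi 2, 0.96 in place of 1.71 on dpi 10 and 0.89 in place of 2.17 on dpi 42. The OL rise from dpi 2 to dpi 10 was 1.59 under the correction (q = 6e-09).

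S100b, the classical glial member, was the most abundant S100 transcript per exon length in every group, at 1637 ± 133 CPM per kb (SD, n = 3) in naive OL libraries. On this scale it made up 71% of the 10 genes' summed level in naive OL libraries and 35.8% on dpi 2. In OL libraries its level was 2628, 2427 and 2233 CPM in naive tissue. It was 1530, 1785 and 1447 CPM on dpi 2, then 2992, 3224 and 3407 CPM on dpi 10, and 4142, 3992 and 3743 CPM by dpi 42. All dpi 2 libraries lay below all naive libraries, and all dpi 10 and dpi 42 libraries lay above them. S100b was the only one of the 10 genes called lower after SCI: on dpi 2 it fell by 0.61 in OL libraries (SE 0.10, q = 5.38e-05) and by 0.55 in total RNA (SE 0.10, q = 0.00018).

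On dpi 10 S100b was 0.40 ± 0.10 higher than naive in OL libraries (q = 0.0080) and differed by -0.21 ± 0.10 in total RNA (q = 0.12), where its libraries measured 758, 728 and 772 CPM against 977, 836 and 798 in naive tissue. The gain of OL enrichment over naive was itself called, at 0.61 ± 0.11 (q = 0.0047), as enrichment went from 1.48 to 2.09. With the length and GC correction that gain was 0.48 (q = 0.11), and the OL change on dpi 10 was -0.02 (q = 0.99). Without 1 library the gain lost its call for 5 of the libraries that enter it: any of the 3 naive OL libraries, or OL replicate 2 or 3 of dpi 10. Leaving out any of these 5 also lowered the number of all tested genes called to gain enrichment, from 771 to between 150 and 314. It moved the median gain of all genes from 0.093 to between -0.026 and -0.001. The calls lost in this way therefore cannot be read as particular to S100b. On dpi 42 total RNA held 978, 1023 and 892 CPM of S100b, not called different from naive (log2 0.15 ± 0.10, q = 0.33).

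S100a13, which takes part in the stress-induced release of Fgf1 and Il1a, and S100a16, a widely expressed member, shared another course with a peak on dpi 2. S100a13 measured 69.6, 73.8 and 78.1 CPM in naive OL libraries and 171, 215 and 242 CPM on dpi 2. It rose by log2 1.5 ± 0.15 in OL libraries (q = 1.47e-07) and 1.71 ± 0.15 in total RNA (q = 4.05e-08). S100a16 measured 442, 473 and 384 CPM in naive OL libraries and 861, 927 and 843 CPM on dpi 2, a rise of 1.02 ± 0.10 (q = 1.2e-07), with 1.37 ± 0.10 in total RNA (q = 3.71e-09). No dpi 2 library of either gene overlapped the naive range, and the share of all genes with such separation was not computed.

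From dpi 2 to dpi 10 both fell: S100a13 by 0.65 in OL libraries (q = 0.0031) and 0.99 in total RNA (q = 0.00024), S100a16 by 0.92 (q = 1.43e-06) and 1.00 (q = 2.31e-06). On dpi 10 S100a13 stayed above naive in OL libraries (0.85 ± 0.15, q = 0.00043), while S100a16 was at 414, 471 and 506 CPM and was not called (0.10 ± 0.10, q = 0.58). Both were OL enriched at each time tested: log2 1.30 to 1.85 for S100a13 and 1.79 to 2.23 for S100a16. S100a1 and S100a13, the head-to-head pair, therefore moved in opposite directions between dpi 2 and dpi 10, in OL libraries as in total RNA. With the length and GC correction the dpi 2 OL changes were 0.24 for S100a13 and 0.26 for S100a16 (q = 0.087 and 0.11), and the total RNA rises were still called, at 1.03 and 0.90. The OL change of S100a13 on dpi 10 was then 0.09 (q = 0.63) and its OL difference between dpi 10 and dpi 2 was -0.16 (q = 0.35).

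**Figure D2:**
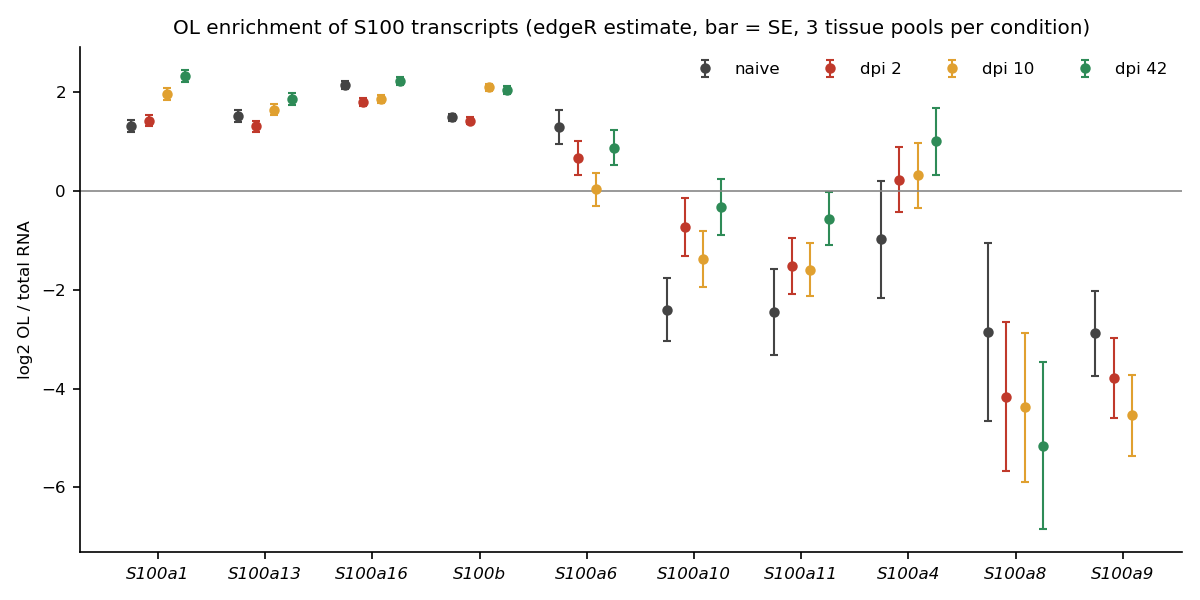
OL enrichment (log2 of OL over total RNA, edgeR estimate with SE from 3 tissue pools) of the 10 S100 genes in the naive group and each dpi group. S100a1, S100a13, S100a16 and S100b sit between 1.30 and 2.32 in all 4 conditions, S100a8 and S100a9 below -2.8, and S100a9 on dpi 42 is left out because its OL libraries had no read.

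S100a6 (calcyclin), S100a10 (the partner of annexin A2), S100a11 (a partner of annexin A1) and S100a4 (a binder of non-muscle myosin) all rose on dpi 2. In total RNA S100a6 went from 17.5, 12.9 and 12.4 CPM in naive tissue to 364, 496 and 333 CPM on dpi 2, log2 4.80 ± 0.36 (q = 2.84e-09). S100a11 went from 1.25, 0.87 and 0.60 to 46.0, 60.3 and 39.4 CPM (5.74 ± 0.62, q = 3.55e-07). S100a4 went from 0.20, 0.39 and 0 to 11.2, 15.2 and 9.37 CPM (5.91 ± 0.73, q = 2.06e-06). S100a10 started higher, at 31.9, 31.4 and 24.5 CPM, and reached 179.6, 255 and 186 CPM (2.82 ± 0.59, q = 0.00065). For these 4 genes no dpi 2 library overlapped the naive libraries, and the share of all genes with such separation was not computed.

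All 4 also rose in OL libraries on dpi 2, though with all libraries none had a called change of OL enrichment over naive on that day. By the study's account, its OL translatomes after SCI apparently also carried mRNA of other cells, microglia and macrophages among them. The study therefore kept only OL changes that came with differential or constantly high OL enrichment. S100a6 was at 30.4, 31.0 and 43.5 CPM in naive OL libraries and 483, 507 and 970 CPM on dpi 2 (log2 4.22 ± 0.34, q = 6.69e-09). S100a10 was at 4.33, 1.95 and 15.5 CPM and then 99.4, 63.6 and 297 CPM (4.39 ± 0.64, q = 1.37e-05). S100a11 and S100a4 had at most 7 reads in any naive OL library, so their fitted changes of 6.99 and 7.18 (q = 2.21e-07 and 5.91e-07) hang on a few reads. Their dpi 2 levels were 13.2, 8.59 and 41.5 CPM for S100a11 and 9.56, 14.2 and 18.9 CPM for S100a4. On dpi 10 the 4 genes were still called higher than naive in OL libraries, S100a10 with the least margin (1.87 ± 0.59, q = 0.032), and S100a6, S100a10 and S100a11 had fallen from dpi 2 by 2.28, 2.52 and 1.44 (q = 2.04e-05, 0.0032 and 0.044). The S100a10 call of dpi 10 was lost with the length and GC correction (q = 0.068), in a fit of these groups alone (q = 0.12) and without naive OL replicate 1 or 2 or dpi 10 OL replicate 2 or 3. The S100a11 fall was lost with the correction (q = 0.20), in the fit of these groups alone (q = 0.14) and without OL replicate 3 of dpi 2 or OL replicate 1 or 3 of dpi 10.

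Replicate OL libraries disagreed for these 4 genes. Replicate 3 of dpi 2 held 4.67 times the S100a10 level of replicate 2, and on dpi 42 replicate 1 held 4.57 times that of replicate 3. In each of the 4 conditions, the OL library with the highest sum of astrocyte markers was also the one with the highest S100a4, S100a6, S100a10 and S100a11 (4 of 4 conditions for each gene). For S100a16 and S100b that was so in 1 of 4 conditions, and for S100a1 and S100a13 in 3 of 4. The naive match rested on 0, 0 and 7 reads for S100a4 and on 5, 0 and 7 reads for S100a11. The share of all genes with such matches was not computed, so they cannot be called particular to S100 genes. Replicates of a group differed over all genes too (median chi-square per gene 2.51 to 21.1). The sum of 6 Schwann cell markers did not follow the same libraries (1 of 4 conditions for each of the 4 genes), although it too was uneven, at 62.5, 64.7 and 683 CPM in naive OL libraries and 1236 to 1444 CPM on dpi 42. Other marker sums moved with the day in OL libraries. For 8 microglia and macrophage markers the sum was 10.7 to 16.7 CPM in naive tissue, 70.3 to 91.6 CPM on dpi 2, 223 to 256 CPM on dpi 10 and 135 to 231 CPM on dpi 42, and its highest library was also highest for each of the 4 genes in 2 of 4 conditions. For 5 fibroblast markers it was 47.9 to 83.4, 201 to 267, 522 to 605 and 205 to 268 CPM (1 of 4 conditions). The part of RNA from these cells in the OL values of the 4 genes was not tested.

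**Figure D3:**
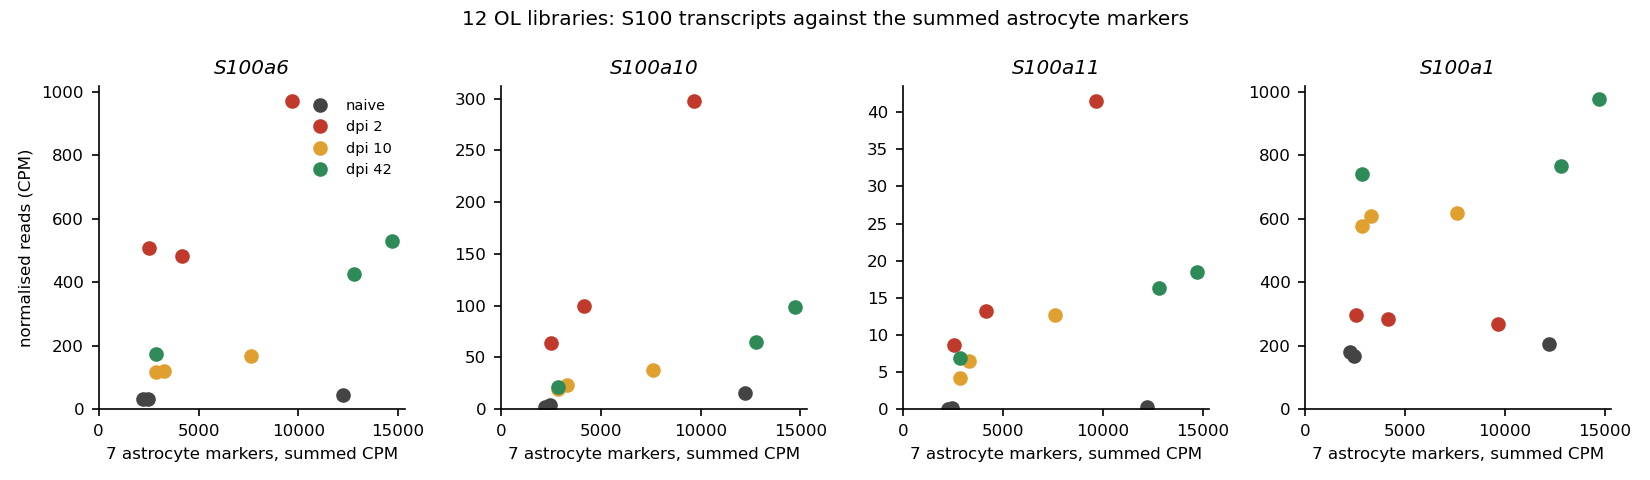
Level (CPM) of S100a6, S100a10, S100a11 and S100a1 in the 12 OL libraries against the summed CPM of 7 astrocyte markers, with points coloured by condition. Within each condition the library furthest right is the highest for S100a6, S100a10 and S100a11 (naive S100a11 with 5, 0 and 7 reads). For S100a1 that holds in 3 of 4 conditions. The exception is dpi 2, where S100a1 stays between 269 and 296 CPM across marker sums from 2533 to 9669.

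OL enrichment of this set was mixed, with values above and below 0. In naive tissue S100a10 and S100a11 were lower in OL than in total RNA (log2 -2.41 ± 0.64, q = 0.0061, and -2.46 ± 0.87, q = 0.029), while S100a6 was higher (1.29 ± 0.35, q = 0.0073). S100a11 was again lower on dpi 2 (-1.52 ± 0.56, q = 0.037) and dpi 10 (-1.60 ± 0.54, q = 0.025), and on dpi 2 S100a6, S100a10 and S100a4 were not called, at 0.66 ± 0.34, -0.73 ± 0.58 and 0.23 ± 0.66. S100a4 was not called in any condition with all libraries, but was called lower in naive OL libraries when either library of pool 3 was left out (q = 0.0027 and 0.0031). The call of S100a11 was lost in a fit of the groups compared alone in naive tissue (q = 0.13) and on dpi 2 (q = 0.052). It was also lost on dpi 2 without tissue pool 2, whose Y-linked reads are noted above (-0.86, q = 0.29), or without a library of pool 1, on dpi 10 without a library of pool 1 or 3, in naive tissue without one of pool 1 or 2, and in naive tissue and on dpi 10 with the length and GC correction (q = 0.11 for each). That of S100a10 in naive tissue was lost without OL replicate 1 or either library of pool 2, and that of S100a6 without total replicate 3 or with library sizes in place of TMM (q = 0.11). On dpi 42 S100a6 was at 0.87 ± 0.35 (q = 0.053) and was called without either library of pool 3. S100a4 was at 0.997 ± 0.669 on that day (q = 0.24).

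S100a8 and S100a9, which form the neutrophil protein calprotectin, were found in total RNA and hardly in OL libraries. In total RNA S100a9 measured 1.18, 2.29 and 0.60 CPM in naive tissue. It reached 11.2, 15.3 and 5.74 CPM on dpi 2 and 8.16, 15.3 and 16.9 CPM on dpi 10, with 6.64, 5.69 and 6.38 CPM left by dpi 42. These changes were log2 2.98 ± 0.71, 3.31 ± 0.72 and 2.20 ± 0.69 (q = 0.0025, 0.0014 and 0.028), and each injured group lay above the naive range. S100a8 measured 0.36, 1.03 and 0.22 CPM in naive tissue and 7.70, 10.8 and 6.56 on dpi 2, a rise of 3.94 ± 1.26 (q = 0.017). It stayed up on dpi 10 (4.00 ± 1.26, q = 0.019), but on dpi 42, at 3.43, 6.47 and 4.64 CPM, it was not called (3.16 ± 1.23, q = 0.07). The S100a8 rises of dpi 2 and dpi 10 were lost without naive replicate 1 or 3, and the S100a9 rise of dpi 42 without replicate 1 or 3 of either group or with the length and GC correction (q = 0.069).

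In OL libraries S100a8 was at 0 reads in 6 of 12 libraries and reached 1.15 CPM at most. S100a9 reached 2.06 CPM and had no read in the 3 OL libraries of dpi 42, where total RNA averaged 6.24 CPM. Against a floor of 3 reads per library that is at least 56-fold lower in OL than in total RNA. S100a9 was lower in OL libraries in all 4 conditions (q = 0.015, 0.0023, 0.00074 and 5.79e-05), and S100a8 on dpi 2, 10 and 42 (q = 0.035, 0.027 and 0.021). The dpi 2 call of S100a8 was lost without pool 2 (log2 -3.02 in place of -4.17, q = 0.12) or a library of pool 1, the dpi 10 call without any 1 pool and the dpi 42 call without total replicate 1 or 3 or OL replicate 2 or 3. The S100a9 call in naive tissue was lost without pool 2 or with the length and GC correction. On dpi 2 S100a9 was called higher than naive in OL libraries (0.76, 0.28 and 1.41 CPM against 0.25, 0.13 and 0.11, q = 0.038), a call that was lost without any 1 of the 6 libraries except OL replicate 2 of dpi 2, in a fit of these groups alone and with the length and GC correction. On dpi 10 it was not called (q = 0.061), except without OL replicate 1 or 2 of that day or by DESeq2.

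The sum of 10 neutrophil markers in total RNA was 6.21 to 9.03 CPM before injury. It was 29.1 to 40.6 CPM on dpi 2, 63.8 to 91.6 CPM on dpi 10 and 45.4 to 64.2 CPM on dpi 42. In OL libraries it was 0.84 to 17.7 CPM, and 4 to 8 of the 10 markers had no read in any 1 library. In bulk tissue, a change in the number of cells of a type and a change in RNA per cell cannot be told apart.

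**Figure D4:**
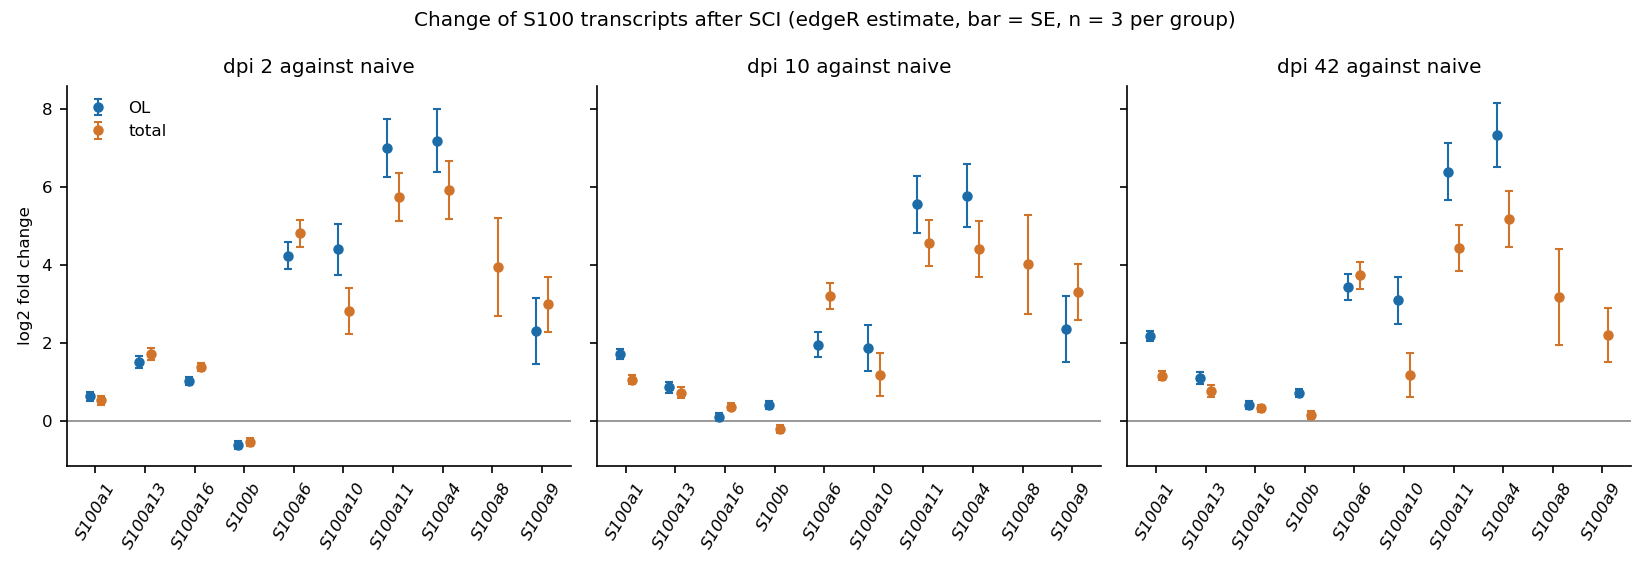
Log2 fold change against naive tissue (edgeR estimate with SE, 3 libraries per group) in OL libraries (blue) and total RNA (orange) on dpi 2, 10 and 42. S100a4 and S100a11 show the largest values on each day, S100b is below 0 on dpi 2, and OL values of S100a8 on all days and S100a9 on dpi 42 are left out because S100a8 had no read in 6 of 12 OL libraries and S100a9 had none in the 3 of dpi 42.

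Counted over the 10 genes, total RNA was higher than naive for 9 on dpi 2 (against 16.4% of all tested genes), for 8 on dpi 10 (13.9%) and for 7 on dpi 42 (10.4%). The median log2 change of the 10 was 2.90, 2.18 and 1.69, beside -0.10, -0.10 and -0.08 over all tested genes. S100b was lower on dpi 2 (20.8% of all genes were lower), and none was lower on dpi 10 or dpi 42 (18.2% and 12.1%). The call of S100a16 was lost on dpi 10 without naive replicate 3, and on dpi 42 without naive replicate 2 or 3, without dpi 42 replicate 1 or 2 or without both libraries whose labels conflict (0.29 in place of 0.31, q = 0.072). With the length and GC correction the count was 8 in place of 9 on dpi 2 (S100a1 lost), 6 in place of 8 on dpi 10 (S100a13 and S100a16 lost, with S100b called lower at -0.49, q = 0.0020) and 4 in place of 7 on dpi 42. Over all tested genes it left 2729, 2246 and 1552 higher on these days, in place of 2810, 2392 and 1781. Among the 9 genes with a test in OL libraries, 7 were higher on dpi 2 (18.4%) and 1 was lower (20%), and on dpi 10 6 were higher (9.62%) and none lower (8.59%). The correction left 4 higher on dpi 2 and 3 on dpi 10. Of all tested genes it left 2510 in place of 3154 and 1288 in place of 1652 higher.

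For dpi 42 against naive in OL libraries, the contrast from which S100a1 was picked, 8 of the 10 genes had all 3 libraries above the naive ones and S100a9 had all below. Over all tested genes these shares were 17.2% and 19.2%. Levels on that day were 529, 425 and 174 CPM for S100a6, 98.8, 65.2 and 21.6 for S100a10, 18.5, 16.3 and 6.85 for S100a11 and 22.9, 16.9 and 7.08 for S100a4. In each of these, replicate 3 was the lowest library, and it was also the one with the lowest astrocyte sum. The values were 173, 180.3 and 122 CPM for S100a13 and 622, 544 and 559 CPM for S100a16. Differential OL enrichment on dpi 42, also untested, was 1.01 for S100a1 and 0.56 for S100b, and with the length and GC correction 0.31 and 0.13.

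**Figure D5:**
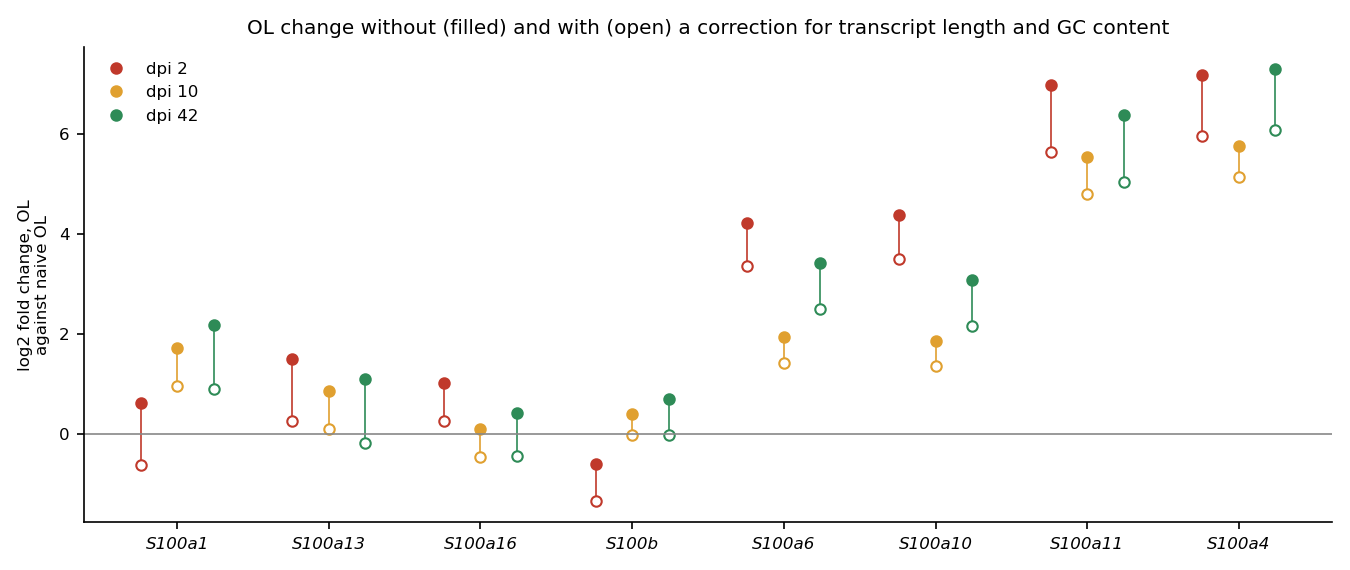
Log2 fold change of OL libraries against naive OL libraries on dpi 2, 10 and 42 for 8 S100 genes, without (filled circles) and with (open circles) a correction of each library for transcript length and GC content. Every open circle lies below its filled one, and the correction puts S100a1 below 0 on dpi 2, S100a13 below 0 on dpi 42 S100a16 below 0 on dpi 10 and 42 and S100b at -0.02 on both of these days, while S100a4, S100a6, S100a10 and S100a11 stay above 1.3.

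From dpi 2 to dpi 10, total RNA rose for S100a1 and S100b (3.31% of all genes were higher) and fell for S100a6, S100a13 and S100a16 (4.53%). The rise of S100b was small (0.34 ± 0.10, q = 0.041) and was lost without any 1 of 5 of the 6 libraries, all but replicate 2 of dpi 2. In OL libraries 2 genes rose (11.7%) and 5 fell (10.6%), with S100a10 and S100a11 as the added ones. From dpi 10 to dpi 42 none of the 10 was called in total RNA in either direction by edgeR (0.0583% of all genes were higher and 0.204% lower), 1 had an unadjusted p under 0.05, and DESeq2 called none. A fit of these groups alone called S100a6 and S100b higher and S100a8 and S100a9 lower. That fit also called more of all genes, 459 higher and 737 lower out of 16587. The untested OL values from dpi 10 to dpi 42 separated all libraries upward for S100a1, S100a6, S100a16 and S100b (9.45% of all genes) and downward for S100a9 (11.4%).

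OL enrichment was called in 4 of 9 genes in naive tissue (24.4% of all genes were OL enriched), 4 of 10 on dpi 2 (24.3%), 4 of 10 on dpi 10 (24.7%) and 3 of 9 on dpi 42 (24.4%). Lower levels in OL libraries were called in 3 of 9, 3 of 10, 3 of 10 and 2 of 9 genes (29.1%, 26.9%, 26.4% and 26.8%). S100a13, S100a16 and S100b were enriched in all 4 conditions, joined by S100a6 in naive tissue and by S100a1 on dpi 2 and dpi 10. Enrichment differed from naive for S100b on dpi 10 alone (4.49% of all genes gained and 3.14% lost enrichment). On dpi 2 none of 9 genes was called by edgeR (7.5% and 5.81%) and 1 had an unadjusted p under 0.05. That gene was S100a16, at -0.34 ± 0.11 (q = 0.056), which DESeq2 called lower and which was also called without any 1 of the 6 OL libraries compared. Leaving out 1 of these libraries also moved the median of all genes, from 0.053 to between -0.183 and -0.093. Without OL replicate 1 of dpi 2, for example, 485 of all tested genes were called higher and 1430 lower. The calls gained in this way therefore cannot be read as particular to S100a16. S100a10 gained a call on dpi 2 without total replicate 3 of naive tissue (q = 0.042), and S100a4 gained one on dpi 2 (q = 0.016 and 0.017) and dpi 10 (q = 0.025 and 0.028) without total or OL replicate 3 of naive tissue.

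Partners and receptors of S100 proteins were taken as a list of 26 genes. In total RNA 10 of them were higher and 5 lower on dpi 2 (16.4% and 20.8% of all tested genes). The counts were 11 higher and 6 lower on dpi 10 (13.9% and 18.2%), and 10 higher and 3 lower by dpi 42 (10.4% and 12.1%). In OL libraries 6 were higher and 4 lower on dpi 2 (18.4% and 20% of all genes), and 5 were higher and 1 lower on dpi 10 (9.62% and 8.59%). Anxa2, the annexin that binds S100a10, rose in OL libraries from 11.2 to 202 CPM on dpi 2 (log2 4.17, q = 1.1e-09) and in total RNA from 34.5 to 277 CPM (3.00, q = 5.78e-08). Anxa1, the S100a11 partner, went from 0.22 to 21.7 CPM in total RNA on dpi 2 (6.63, q = 1.01e-08). Cacybp, the calcyclin-binding protein that pairs with S100a6, was at 93.8 CPM in naive total RNA and 77.1 CPM on dpi 2 and was not called (-0.28, q = 0.16), but was lower on dpi 10 at 65.4 CPM (-0.52, q = 0.014). Myh9, the myosin bound by S100a4, rose in total RNA (1.34 on dpi 2, q = 8.81e-07) and was not called in OL libraries (-0.31, q = 0.12).

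Fgf1, a cargo of S100a13-dependent release, fell in total RNA by 0.58 on dpi 2 (q = 0.00032) and 0.68 on dpi 10 (q = 8.71e-05). In OL libraries it averaged 626 CPM in naive tissue and 549 CPM on dpi 2 and was not called (-0.19, q = 0.20). On dpi 42 Fgf1 was not called in total RNA. Il1a, the other cargo named above, was called higher in total RNA on dpi 10 and dpi 42 and was not called there on dpi 2. In OL libraries Il1a was called lower on dpi 2, from a naive mean of 0.12 CPM to no read. Among receptors, Tlr4 rose in total RNA from 1.29 to 10.1 CPM on dpi 2 (2.96, q = 0.0022), and Ager, which encodes RAGE, averaged 0.14 to 2.79 CPM across total RNA groups, where it was not called against naive tissue on any day. Of 7 other S100 genes listed, 6 were in the table and 3 (S100a3, S100a7a and S100a14) passed the filter, with group means of at most 1.11 CPM. S100a14 was called higher in total RNA on dpi 2 and dpi 42, against naive libraries with no read.

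Across the 8 group means of log2 CPM, the 10 genes fell into like courses. S100a13 and S100a16 correlated at r = 0.96, S100a8 and S100a9 at 0.953, S100a4 with S100a6 and S100a11 at 0.937 and 0.938, and S100a10 with S100a11 at 0.918. S100a1 was closest to S100b, at 0.876. The 8 means share their libraries and the OL to total difference, so these values only describe. Outside the family, the genes most like S100a1 were Jund, Lin37 and Ccdc90b (r = 0.986, 0.977 and 0.973 over 8 groups). Those most like S100b were Macrod1, Npb and Mepce (0.997, 0.992 and 0.991), and Ecm1, Emp3 and Tspo were most like S100a11 (0.994, 0.994 and 0.992). S100a4 was closest to Eno1b, Vim and Oaf (0.987, 0.981 and 0.970), S100a6 to Cebpd, Bax and Nradd (0.979, 0.978 and 0.976), and S100a8 to Sipa1, Shc1 and Tlr13 (0.997, 0.996 and 0.996).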

How the data were processed

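The authors aligned reads to mm10/GRCm38.p6 with STAR, counted them per gene with HTSeq 0.10.0 after FastQC 0.10.1, and deposited the raw read counts of 21965 genes in 24 libraries, with no normalization (versions per the submitters' processing notes). STAR settings and strand use are not given in the sources used here. All 24 value columns were used. The members, gene lists and tests were chosen with earlier results of these data known.

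The 17167 genes whose counts added up to 10 or more were fitted with edgeR 4.0.16 (R 4.3.3, TMM, quasi-likelihood F test, two-sided, Benjamini-Hochberg over all tested genes, q under 0.05). A fit of 8 group means over all libraries gave changes against naive tissue and between days. A fit with the tissue pool as a block gave OL enrichment and its change. The named genes are the 10 members, the fixed lists of partners, other S100 genes and cell type markers, and for each member the 3 genes with the highest Pearson correlation over group means of log2 CPM (prior count 2, mean of at least 1). DESeq2 1.42.0 served as an alternative test. Depth was 25840127 to 32987841 reads per library. The scripts were tested on simulated data first.

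OL and total libraries of the same pool came from the same tissue. Their deviations from the group means correlated at 0.0245 to 0.137 for the naive, dpi 2 and dpi 10 pools and at -0.0109 to 0.02 on dpi 42, where 2 labels conflict, against -0.105 to 0.0502 between pools. On dpi 42 pools follow the numbers in the column headers. Replicates of a group differed by more than sampling noise (median chi-square per gene 2.51 to 21.1) and are pools of different mice. Gene positions come from GENCODE M21 and promoter windows from RefSeq (GRCm38.p6). Length and GC content were known for 17154 tested genes.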

Additional observations from a re-analysis of the deposited data

Results flagged for a closer look

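The gain of OL enrichment of S100b on dpi 10 over naive tissue (log2 0.61 ± 0.11, q = 0.0047, edgeR with the tissue pool as a block) is listed because OL and total RNA changed differently: S100b went up in the OL libraries and not in total RNA. All 3 dpi 10 OL libraries lay above the naive OL libraries, and all 3 dpi 10 total RNA libraries lay below the naive ones. Groups of 3 libraries are too small for a test of single outlying samples.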

How the results depend on the processing

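Of 2927 values under an alternative setting, 2624 kept their direction and side of the threshold or moved by less than the replicate spread; calls lost stand mostly beside their results, and counts that moved and values that changed sign are given here; where no cause is named, the cause was not tested. With the length and GC correction, genes called higher were 4 in place of 7 for the OL change on dpi 2, 3 in place of 6 on dpi 10, 4 in place of 7 for total RNA on dpi 42 and 0 in place of 1 for differential OL enrichment on dpi 10. Over all tested genes the corrected counts were 2510, 1288, 1552 and 308, in place of 3154, 1652, 1781 and 771. Genes called lower were 1 in place of 3 for naive OL enrichment, 2 in place of 0 for differential enrichment on dpi 2, 1 in place of 0 for both OL and total change on dpi 10 and 3 in place of 5 for OL dpi 10 against dpi 2. For all genes these were 3841, 926, 2271 (OL), 3211 (total RNA) and 1904, in place of 5001, 998, 1474, 3127 and 1813. The same correction turned S100a1 (-0.63 for OL and -0.17 for total RNA on dpi 2, -0.069 for OL dpi 42 against dpi 10), S100a13 (differential enrichment -0.10 on dpi 10 and -0.36 on dpi 42, OL -0.19 on dpi 42, total RNA -0.019 for dpi 42 against dpi 10), S100a16 (OL -0.46 on dpi 10 and -0.45 on dpi 42, total RNA -0.019 and -0.12) and S100b (OL -0.019 on dpi 10 and -0.02 on dpi 42, total RNA -0.15 on dpi 42, OL -0.001 for dpi 42 against dpi 10).

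With library sizes alone the median OL enrichment of all genes moved by -0.575 to -0.498 and the share of higher calls was 19.5 to 25.0% in place of 45.6 to 48.3% (59.0 to 59.9% with the length and GC correction, which moved the median by 0.235 to 0.315). S100a4 then had an enrichment of -0.34 on dpi 2 and -0.27 on dpi 10, S100a6 -0.55 on dpi 10 (-0.055 with DESeq2 size factors and -0.055 in DESeq2) and S100a13 a total RNA change of -0.016 for dpi 42 against dpi 10. For total RNA changes the share of higher calls was 22.2 to 46.2%, with 12.5 to 65.4% for library sizes alone and 3.85 to 45.5% for the length and GC correction; for OL changes these were 47.9 to 52.8%, 46.0 to 70.8% and 36.2 to 48.7%. Lower differential enrichment on dpi 2 was called for 1 gene with library sizes alone, 1 in DESeq2 and 1 with filterByExpr, and on dpi 10 for 1 in DESeq2 and 1 in a fit of the groups compared. That fit called 6 genes lower in place of 3 in total RNA for dpi 10 against dpi 2, and 2 higher and 2 lower for dpi 42 against dpi 10. Of all genes it called 1827 of 16546 lower in the former, and 459 of 16587 higher and 737 lower in the latter. Without pool 2 of dpi 2, 1 gene in place of 3 was lower in OL on dpi 2, and S100a9 changed by -0.35 for OL dpi 10 against dpi 2. Without both libraries with conflicting labels S100a11 changed by 0.046 in total RNA for dpi 42 against dpi 10.

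Deviations of injured and naive libraries with the same replicate number correlated at over 0.1 in 1 of 9 OL and 0 of 9 total pairs. The ranges were -0.309 to 0.248 in OL and -0.0452 to 0.0528 in total RNA. Libraries known to share a pool reached only 0.0245 to 0.137 outside dpi 42. This comparison therefore cannot decide whether replicate numbers pair libraries across groups. The fit with the replicate number as a block used OL or total RNA libraries alone. Effects of the block and of the set of libraries therefore cannot be told apart. In this fit, 6 genes in place of 3 were lower in total RNA and 3 in place of 5 in OL for dpi 10 against dpi 2, and S100a9 changed by -0.23 in OL. Over all tested genes 1762 in place of 778 were lower in total RNA and 1046 in place of 1813 in OL. The same fit also ended the OL calls of S100b on dpi 10 (q = 0.076), S100a10 on dpi 10 and against dpi 2 (q = 0.13 and 0.090), S100a9 on dpi 2 (q = 0.46) and S100a11 for dpi 10 against dpi 2 (q = 0.32). It added total RNA calls for S100a10 on dpi 10 and 42 and for S100a8 and S100b on dpi 42, as did the fit of the groups compared. Higher calls over all tested genes were 718 in place of 1652 for OL on dpi 10, and 3325 in place of 1781 for total RNA on dpi 42. Leaving the tissue pool out as a block moved no count of members by over 1.5 times.

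Leaving out 1 library at a time, genes called lower ranged from 0 to 4 for naive OL enrichment, 1 to 3 on dpi 2, 1 to 2 on dpi 10 and 1 to 2 on dpi 42. Differential enrichment ranged from 0 to 2 higher and 0 to 1 lower on dpi 2 and 0 to 2 higher on dpi 10, and total RNA for dpi 10 against dpi 2 from 1 to 2 higher. Values that changed sign were OL enrichment of S100a4 in naive tissue (-6.13 to 0.62) and on dpi 2 (-0.21 to 0.46), of S100a6 on dpi 10 (-0.19 to 0.21) and of S100a10 on dpi 42 (-0.74 to 0.23). Differential enrichment did so for S100a4 on dpi 2 (-0.44 to 6.35) and dpi 10 (-0.27 to 6.44), S100a11 on dpi 2 (-0.052 to 1.82), S100b on dpi 2 (-0.33 to 0.006) and S100a13 on dpi 10 (-0.12 to 0.21). So did dpi 42 against dpi 10 in total RNA for S100a10 (-0.067 to 0.043), S100a11 (-0.29 to 0.046) and S100a13 (-0.093 to 0.10), and dpi 10 against dpi 2 for S100a8 in total RNA (-0.085 to 0.29) and S100a9 in OL (-1.64 to 0.76). Untested values also changed sign: differential enrichment of S100a1 on dpi 2 (0.11) was -0.46 with the length and GC correction and -0.24 to 0.24 without 1 library, that of S100a16 on dpi 42 (0.10) was -0.32 with the correction and -0.094 to 0.16 without 1 library, that of S100a6 on dpi 42 (-0.42) was 0.14 without total replicate 3 of dpi 42, and OL dpi 42 against dpi 10 of S100a13 (0.25) was -0.28 with the correction. S100a4, S100a8, S100a9 and S100a11 had few or no reads in some groups, which limits their values.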
